A study of Rattus norvegicus with 56 samples.

Results

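The hippocampus of sham-operated rats was followed by small RNA sequencing from 24 h to 1 year after surgery. The 28 sham libraries were taken by their treatment and time labels from a count table of 56 libraries, and they came from 4 rats at each of 7 times: 24 h, 2 weeks, 1, 2, 3 and 6 months, and 1 year. The other 28 libraries came from rats with traumatic brain injury (TBI) by fluid percussion at the same times and were used only for comparison. Each sham rat had sham surgery and no other treatment in the labels, and total RNA of the hippocampus was used. Strain, sex, age at surgery and sequencing run were not given in the sources used here, so that time after surgery, age of the rat and batch cannot be told apart in any comparison between times. The library names carry a number that, over sham and TBI libraries together, runs from 1 to 8 at 24 h and 2 weeks, from 9 to 16 at 3 and 6 months, from 17 to 20 at 1 year, and from 21 to 28 at 1 and 2 months, which is not the order of the times. Among the sham libraries each number occurs in 2 rats of a time, except at 1 year, where each occurs once, and no number is shared between times. What the number stands for was not given in the sources used here. Each rat was sampled once, and the sham libraries held 3665721 to 11885871 counts (median 5412190).

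MicroRNAs (miRNAs) are short RNAs that guide Argonaute proteins to messenger RNAs, whose translation or stability is then reduced. Bases 2 to 8 of the miRNA, the seed, make most of the contact with the target. In the brain, miR-9, miR-124, miR-128 and miR-218 are known from neurons and their precursors, miR-219 and miR-338 from oligodendrocytes, miR-204 and miR-211 from choroid plexus and pigment epithelium, miR-34b and miR-34c from ciliated epithelium, and the cluster of miR-183, miR-96 and miR-182 from sensory cells and photoreceptors. The table named 367 miRNAs, of which 309 were 5p arms, 5 were 3p arms and 53 carried no arm in the name. It therefore holds for most genes the 5p product alone, and for miR-124 the 5p strand, not the guide strand known from neurons.

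The label of the tissue was checked first against marker miRNAs. The neuron-enriched miRNAs (10 of 11 passed the filter on low counts) summed to 172397 to 318843 CPM (counts scaled to a common library size of 1e6 after correction for composition) in the 28 sham libraries, and no member was at 0 in all of them. Most of this sum was miR-9a-5p, followed by miR-218a-5p, so that it rests on these more than on the list as a whole. The oligodendrocyte miRNAs summed to 1489 to 3328 CPM at the 7 times. Of the 8 muscle miRNAs in the table, 6 had no count in any sham library and 1 passed the filter, miR-499-5p, and the list summed to 427 to 967 CPM. All of the 8 but miR-133c are 5p arms, so their absence does not speak for the other arm and cannot check the tissue label. The pair of liver and endocrine miRNAs stayed between 2.78 and 21.1 CPM in sum, and miR-375 is likewise there as the 5p arm alone. In bulk tissue, fewer cells of a type and less RNA per cell cannot be told apart.

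A few miRNAs made up most of each library. miR-9a-5p took 19.5% ± 2.0 of the counts (SD, n = 28) and ranked first in 27 of the 28 libraries. miR-26a-5p followed with 12.3% ± 1.48, and miR-99a-5p with 10.7% ± 1.34. These 3 together held 42.6% of the counts, the first 10 held 69.0%, the first 20 held 84.5%, and 19 miRNAs exceeded 1% on average. miR-7a-5p, a miRNA of neurons and endocrine cells, had 4.76% ± 0.97. let-7g-5p, miR-218a-5p, let-7f-5p and miR-125b-5p came next with 4.05%, 4.03%, 3.86% and 3.84%, and these neighbours in the order lay within an SD of each other. let-7i-5p had 3.39% ± 0.30 and let-7c-5p 2.47% ± 0.28. Library preparation ligates miRNAs with unequal efficiency, so these shares rank counts and not molecules.

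**Figure D1:**
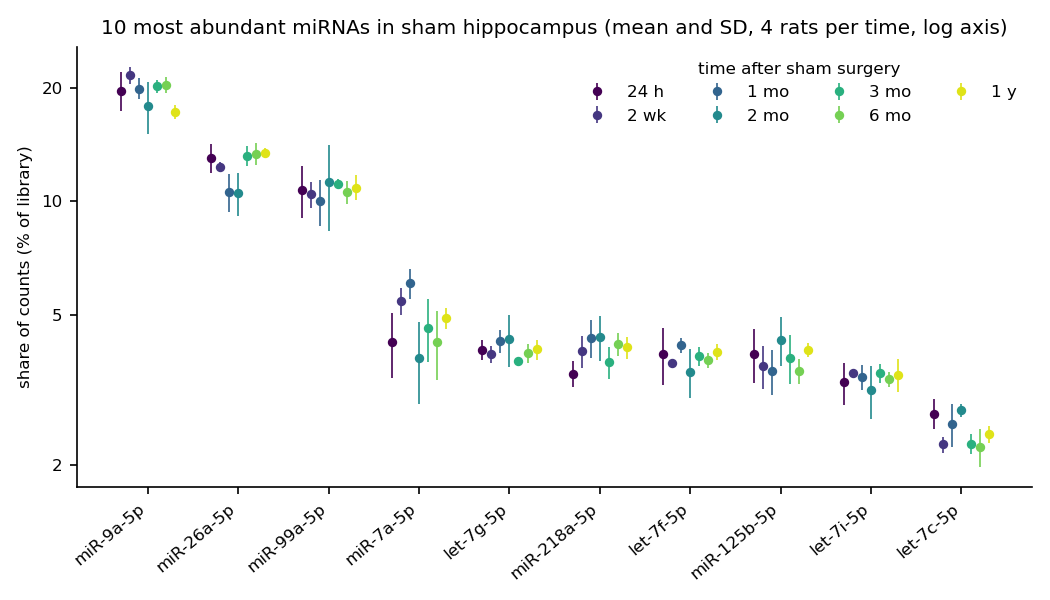
Share of library counts (percent, log axis) of the 10 most abundant miRNAs in sham hippocampus; points are means and bars SD of 4 rats, coloured by time after surgery. The order is nearly the same at every time, with miR-9a-5p between 17.2% and 21.6% and miR-26a-5p lower at 1 and 2 months.

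The baseline order hardly moved over the year. Spearman's rho between the mean shares of counts at any 2 times was 0.983 to 0.997 across the 240 miRNAs tested. It is given as a description across miRNAs that share the same library chemistry. The 10 most abundant miRNAs of each time were the overall 10 in full, except at 2 months, where 9 of the 10 were among them and miR-30c-5p took rank 10 with 2.91% in place of let-7c-5p. Of the overall 10, 8 were among the first 10 in every single library. At 2 months miR-7a-5p fell to rank 7, with 3.83% ± 0.94 against 6.06% ± 0.54 at 1 month (SD, n = 4). miR-26a-5p had 10.6% ± 1.2 at 1 month and 10.5% ± 1.35 at 2 months, against 12.3% to 13.4% at the other 5 times.

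The mature sequences of the abundant miRNAs and of those that moved with time are shown because the groups below share seeds or lie side by side. They come from RefSeq (GRCr8), which had an entry for 331 of the 367 miRNAs and for 30 of the 32 named here, all but miR-99a-5p and miR-124-5p. Capitals mark the seed, written 5′ to 3′.
miR-9a-5p: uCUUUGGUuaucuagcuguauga
miR-26a-5p: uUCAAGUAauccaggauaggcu
miR-7a-5p: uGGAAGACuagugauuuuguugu
let-7g-5p: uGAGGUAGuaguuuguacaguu
let-7f-5p: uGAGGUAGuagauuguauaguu
let-7i-5p: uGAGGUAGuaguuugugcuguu
let-7c-5p: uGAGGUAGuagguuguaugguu
miR-296-5p: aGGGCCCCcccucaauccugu
miR-298-5p: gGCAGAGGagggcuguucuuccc
miR-412-5p: uGGUCGACcagcuggaaagu
miR-181c-5p: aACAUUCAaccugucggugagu
miR-195-5p: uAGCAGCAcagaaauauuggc
miR-497-5p: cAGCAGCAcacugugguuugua
miR-6215: uUUAGGGUugcagagccagg
miR-204-5p: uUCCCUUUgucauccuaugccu
miR-96-5p: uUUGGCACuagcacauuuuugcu
miR-183-5p: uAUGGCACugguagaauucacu
miR-182: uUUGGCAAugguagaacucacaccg
miR-674-5p: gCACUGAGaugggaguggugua
miR-339-5p: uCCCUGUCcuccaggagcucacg

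The 4 let-7 members among the first 10 share 1 seed with 5 other tested miRNAs (let-7a, let-7b, let-7d, let-7e and miR-98), and they differ from each other only outside it. Reads of such near-identical miRNAs can be divided differently by a counter, and the rule used was not given in the sources used here. miR-195-5p and miR-497-5p share the seed AGCAGCA with miR-15b-5p, miR-16-5p and miR-322-5p, and in GRCr8 lie 315 bases apart on the plus strand of chromosome 10. miR-296-5p (chr3:183470114-183470134) and miR-298-5p (chr3:183470571-183470593) lie 436 bases apart on the minus strand of chromosome 3, in the imprinted Gnas region. miR-183-5p and miR-96-5p lie 182 bases apart on the minus strand of chromosome 4, with miR-182 a further 3627 bases from miR-96-5p. miR-9a-5p has 3 identical entries in RefSeq and miR-7a-5p has 2, whose reads cannot be separated. The counts themselves name no genome build.

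Abundance differed somewhere among the 7 times for 65 of the 240 miRNAs tested (27.1%; edgeR's quasi-likelihood test, adjusted p under 0.05). The 5 with the lowest adjusted p were miR-6215, miR-770-5p, miR-674-5p, miR-339-5p and miR-298-5p, each described below. A steady trend was rarer. Fitted against the order of the times, 6 of 240 miRNAs (2.5%) had a slope past the threshold, of which 2 rose and 4 fell.

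miR-296-5p had the steepest fall. Its levels were 12.1, 4.77, 7.84 and 9.07 CPM at 24 h, 5.45, 8.65, 5.04 and 8.72 CPM at 2 weeks, and 7.25, 5.34, 3.64 and 2.98 CPM at 1 month. They went on at 4.02, 5.15, 3.52 and 3.19 CPM at 2 months, 3.33, 4.46, 2.26 and 1.94 CPM at 3 months, 4.47, 2.76, 3.33 and 1.40 CPM at 6 months, and ended at 2.26, 3.19, 1.35 and 3.65 CPM at 1 year. All 4 rats at 1 year lay below all 4 at 24 h and at 2 weeks. The slope was -0.30 ± 0.05 log2 per step to the next time (SE, adjusted p = 1.35e-04), at 6 to 101 counts per library.

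Its neighbour miR-298-5p fell as well. It was at 52.2, 43.0, 59.5 and 55.8 CPM at 24 h, at 55.7, 68.1, 55.2 and 61.1 CPM at 2 weeks, and at 37.3, 34.1, 38.0 and 32.3 CPM at 1 year, so that the first 2 times did not overlap with the last. The 4 rats at 6 months, with 32.1 to 39.5 CPM, were already as low as those at 1 year. The slope was -0.12 ± 0.02 log2 per step (SE, adjusted p = 1.92e-04).

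miR-412-5p, encoded in the imprinted Dlk1-Dio3 region, fell by 0.09 ± 0.02 log2 per step (SE, adjusted p = 0.00826). The slope of miR-412-5p lost the call in 2 of 47 alternatives (adjusted p up to 0.211). Its fall lay early: 88.6 ± 12.3 CPM at 24 h and 93.8 ± 9.34 at 2 weeks were followed by 72.5 ± 10.5 at 1 month and by 62.8 to 65.4 CPM as means of the last 4 times (SD, n = 4). miR-181c-5p fell by 0.10 ± 0.02 log2 per step (SE, adjusted p = 0.0106). Its fall lay late: it was at 230, 158, 156 and 211 CPM at 24 h, at 173 to 233 CPM at 2 months, and at 125, 130, 121 and 134 CPM at 1 year, below every other sham library except 1 at 6 months (110 CPM). Without the 1 year libraries the slope of miR-181c-5p was -0.07 log2 per step and did not pass (adjusted p = 0.287).

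miR-195-5p, a member of the miR-15 and miR-16 seed group, rose by 0.08 ± 0.02 log2 per step (SE, adjusted p = 0.0171). Its mean was 419 ± 60.3 CPM at 24 h, 466 ± 35 at 2 weeks, 617 ± 91.8 at 2 months, 499 ± 42.1 at 3 months, 619 ± 60.4 at 6 months and 569 ± 28.5 at 1 year (SD, n = 4). The 4 rats at 1 year (552 to 611 CPM) lay above the 4 at 24 h (338 to 477 CPM). With scaling by total count alone its slope was 0.07 and did not pass (adjusted p = 0.172). The slope lost the call in 8 of 47 alternatives (adjusted p up to 0.233). No rising miRNA was called without the 24 h libraries, without the 6 month libraries or with time in months.

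miR-6215, the other miRNA with a rising slope (0.52 ± 0.14 log2 per step, SE, adjusted p = 0.0283), did not rise steadily. Its slope lost the call in 17 of 46 alternatives and ranged from 0.10 to 1.01 over them (adjusted p up to 0.561). It was at 0.26 to 1.62 CPM at 24 h, at 0.27 to 2.79 CPM at 2 weeks, at 0.78 to 1.82 CPM at 1 month and at 0.64 to 1.37 CPM at 2 months. At 3 months it was at 12.7, 25.1, 9.05 and 7.77 CPM and at 6 months at 11.7, 9.11, 8.12 and 10.2 CPM, and at 1 year it was back at 1.58, 2.21, 1.65 and 1.64 CPM. The 8 libraries of 3 and 6 months overlapped with no other sham library, and their names carry the numbers 9, 10, 13 and 14. The counts were low, 1 to 16 per library at the other times and 32 to 90 at these. The TBI libraries of 3 months had 9.95 to 24.2 CPM and those of 6 months 2.00 to 9.84 CPM, against at most 2.12 CPM at the other 5 times. In a contrast chosen after these values were seen, 3 and 6 months against the other 5 times called 1 of 240 miRNAs in the sham libraries (0.417%), which was miR-6215 (log2 3.44 ± 0.23, SE, adjusted p = 5.81e-13), with 47 at an unadjusted p under 0.05. DESeq2 was not run for this contrast. The same contrast called 26 of 240 in the TBI libraries (10.8%), with miR-6215 at log2 3.02 ± 0.26 (SE, adjusted p = 1.12e-09).

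**Figure D2:**
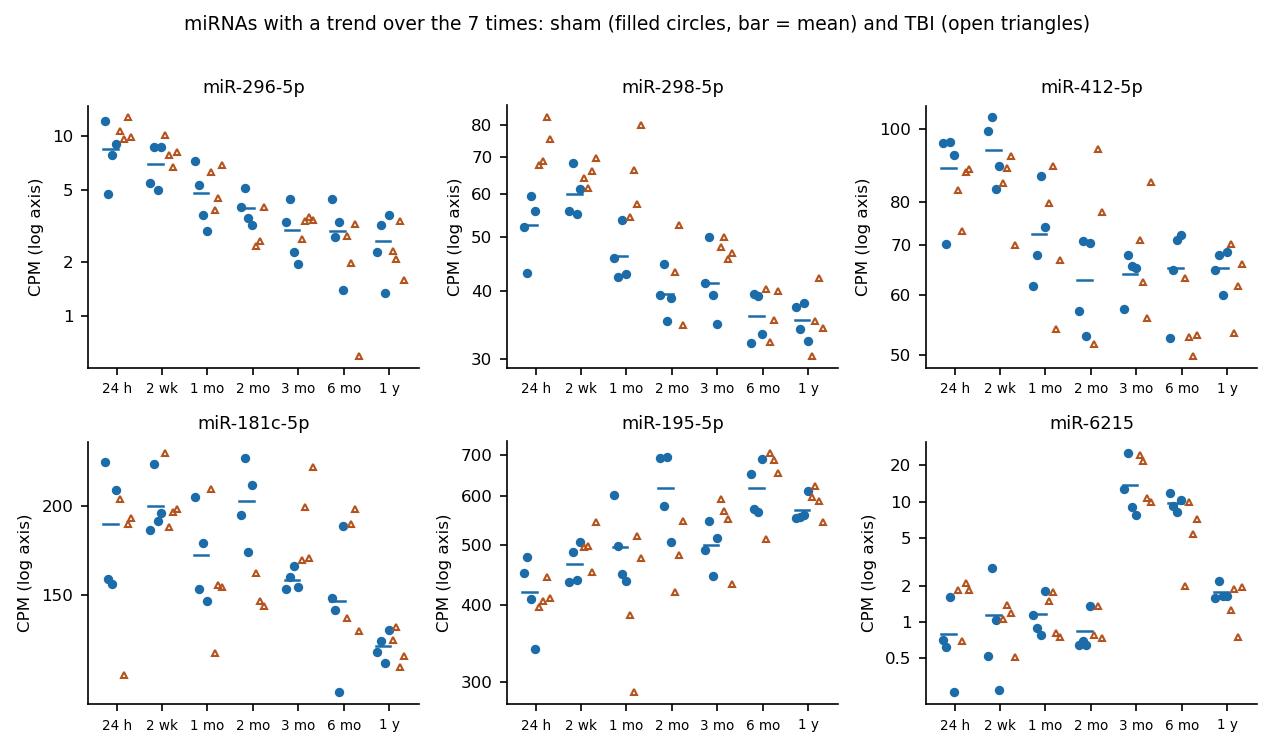
Abundance (CPM, log axes) of the 6 miRNAs with a slope past the threshold, by time after surgery; filled circles are sham rats with a bar at their mean, and open triangles are TBI rats, without rat X747. miR-296-5p and miR-298-5p fall across the year in both groups, while miR-6215 stands at 7.77 to 25.1 CPM in sham rats at 3 and 6 months and below 3 CPM in all other sham libraries.

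From the first to the last time, 4 of 240 miRNAs differed (1.67%). miR-296-5p fell by 1.68 ± 0.37 (SE, adjusted p = 0.0156), miR-181c-5p by 0.57 ± 0.15 (adjusted p = 0.0400) and miR-298-5p by 0.54 ± 0.13 (adjusted p = 0.0310), all log2 of 1 year over 24 h. miR-24-2-5p, the 5p strand of a miR-24 precursor, rose by 0.42 ± 0.09 (SE, adjusted p = 0.0156), from 439, 456, 396 and 448 CPM at 24 h to 602, 493, 608 and 620 CPM at 1 year. The number of calls moved with single rats, while the fold changes moved little. Leaving out 1 library gave between 0 and 17 calls, with 0 when 1 year replicate 1 or 3 was left out, 14 and 17 without 24 h replicate 1 and 2, 2 without 24 h replicate 3, and 1 without 24 h replicate 4 or 1 year replicate 4. Over all alternatives run, the log2 change of miR-24-2-5p stayed between 0.36 and 0.45, that of miR-298-5p between -0.64 and -0.48, that of miR-181c-5p between -0.66 and -0.46 and that of miR-296-5p between -1.97 and -1.40. Without X57, X60 and X79 there were 0 calls, with 41 at an unadjusted p under 0.05, and the 4 kept their direction with a median size of 0.57 against 0.56.

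Whether a time stood apart from its neighbours was asked by setting each of the 5 inner times against the mean of the time before and the time after, and counting only miRNAs on the same side of both. At 1 month and at 6 months no miRNA was called by edgeR's quasi-likelihood test (0.0% each), with 14 and 28 at an unadjusted p under 0.05. DESeq2 called 0 at 1 month and 8 at 6 months. At 2 weeks 3 of 240 were called (1.25%), at 2 months 87 (36.2%) and at 3 months 62 (25.8%). The contrasts at 2 and 3 months share the libraries of both times, so that the same gap between them enters each with opposite sign.

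With all 28 libraries, the step from 2 to 3 months had the most calls of the 21 pairs of times, with 85 of 240 miRNAs called (35.4%, 43 higher and 42 lower at 3 months). Every other pair with 20 or more calls also included 2 months: 45 against 24 h (18.8%), 53 against 2 weeks (22.1%), 51 against 1 year (21.2%) and 26 against 6 months (10.8%). Against 1 month, 7 were called (2.92%). Among the 15 pairs without 2 months, 24 h against 6 months had the most calls, 15 (6.25%), and 3 months differed from 6 months by 0 calls, with 44 at an unadjusted p under 0.05. When a miRNA had to pass against each neighbour alone, 5 remained at 2 months, which were miR-124-5p, miR-339-5p, miR-490-5p and miR-674-5p on the higher side and miR-7a-5p on the lower, and 0 remained at 3 months. Of these, miR-490-5p and miR-7a-5p are named as the remaining members of a count of 5.

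**Figure D3:**
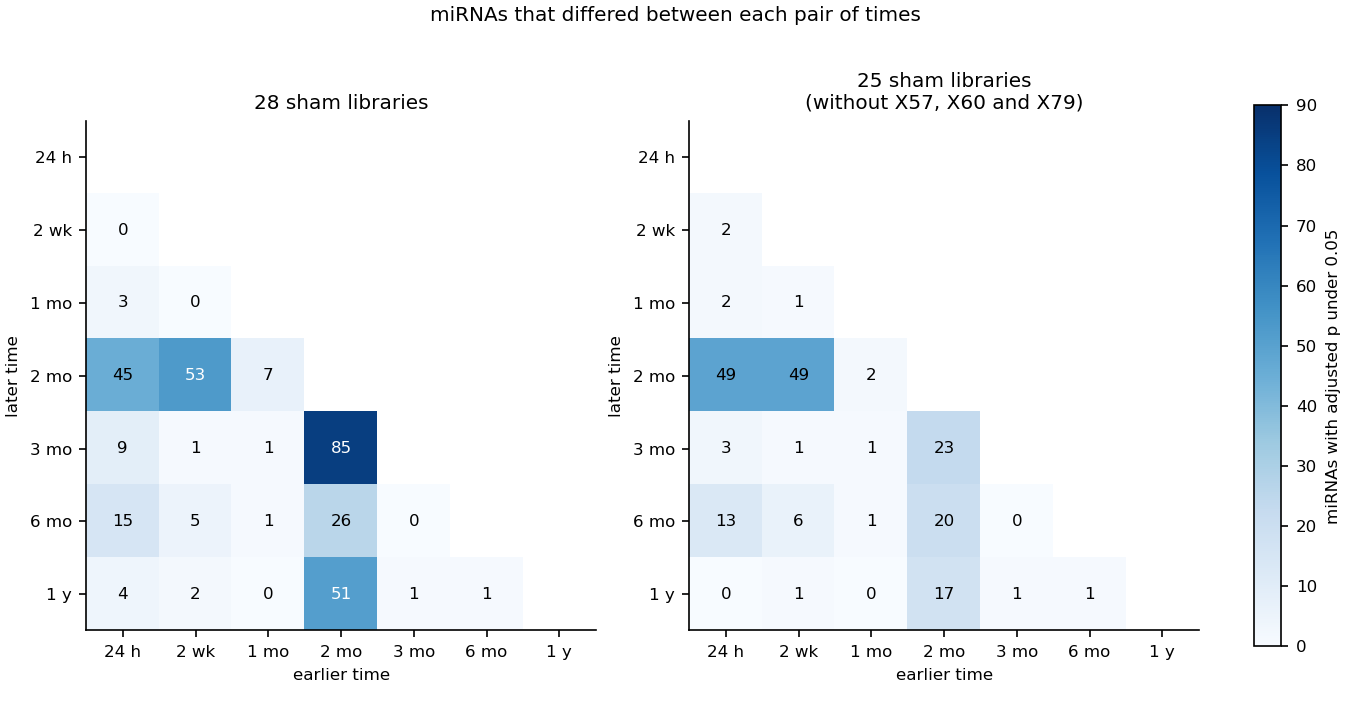
Number of miRNAs with an adjusted p under 0.05 between each pair of times, in all 28 sham libraries (left) and without the libraries of rats X57, X60 and X79 (right). All pairs with 20 or more calls include 2 months on both sides; the step from 2 to 3 months has 85 calls on the left and 23 on the right.

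3 rats must be named beside these counts, because their libraries stood apart in markers of other cells. miR-204-5p was at 3520, 2553, 20473 and 18008 CPM at 3 months, the last 2 being rats X57 and X60, and at 2222, 1963, 18953 and 2333 CPM at 1 year, the third being rat X79. The other 25 sham libraries had 1140 to 5024 CPM. The 4 choroid plexus miRNAs that passed the filter (miR-204-5p, miR-211-5p, miR-448-5p and miR-764-5p) and the ciliated cell miRNAs were high together in these 3 rats: miR-211-5p was at 466, 419 and 443 CPM against at most 108 elsewhere, and miR-34c-5p at 3592, 2995 and 3847 CPM against at most 1481 CPM elsewhere. In the TBI libraries the choroid plexus list summed to at most 4560 CPM, and to 3460 to 4247 CPM at 3 months. The part of choroid plexus tissue in the differences between times was not tested.

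Without these 3 libraries, a setting added after the data were seen, 31 miRNAs stood apart at 2 months in place of 87, all 31 of them among the 87, and 4 at 3 months in place of 62. This setting tested 246 miRNAs in place of 240 and left 2 libraries at 3 months. Fewer rats and the loss of outlying values therefore cannot be told apart. From 2 to 3 months, 79 miRNAs had an unadjusted p under 0.05, against 113 with all libraries. The direction did not turn for any of the 87 or the 62, which says little, because they were chosen in libraries that both fits share. The median size of the 87 was 0.51 log2 with all libraries and 0.46 in the same direction without the 3, and that of the 62 was 0.59 and 0.49. The 4 left at 3 months were miR-6215, miR-96-5p, miR-182 and miR-183-5p, of which the last 3 rest on 1 of the 2 remaining libraries. The step from 2 to 3 months then had 23 calls in place of 85 and was no longer the pair with the most: 24 h and 2 weeks against 2 months had 49 each. Against 1 month, 2 miRNAs were called at 2 months, both lower, so that none of the 4 on the higher side named above passed against each neighbour alone.

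**Figure D4:**
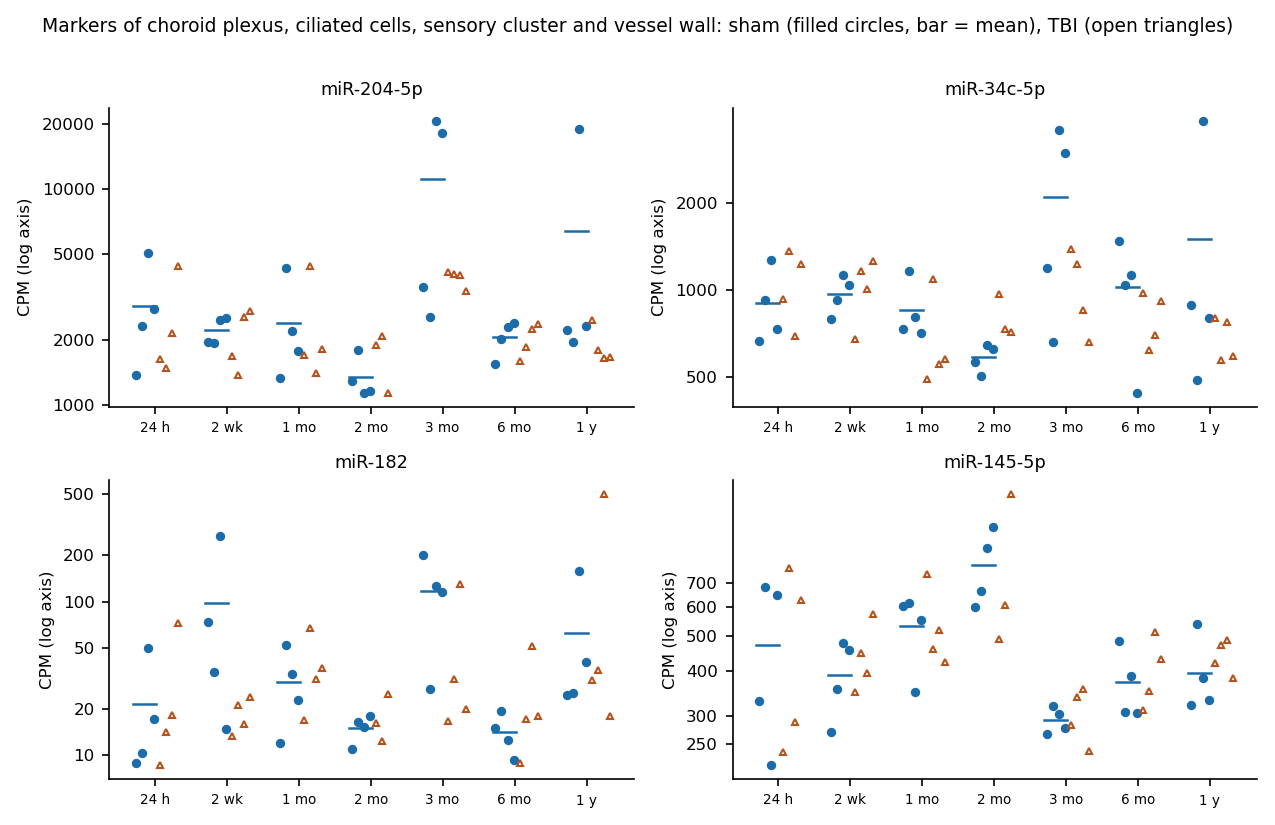
Abundance (CPM, log axes) of miR-204-5p (choroid plexus), miR-34c-5p (ciliated cells), miR-182 (sensory cluster) and miR-145-5p (vessel wall) by time; filled circles are sham rats with a bar at their mean, and open triangles TBI rats, without rat X747. miR-204-5p reaches 18008 to 20473 CPM in 3 sham rats and lies at 1140 to 5024 CPM in the other 25, while miR-145-5p is highest at 2 months.

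At 2 months 47 miRNAs were higher than the mean of the neighbouring times (19.6%) and 40 lower (16.7%). Against 1 month alone, 7 of 240 were called. Scaled by total count alone the split was 72 higher and 9 lower, and the median of all 240 miRNAs moved from 0.03 to 0.21 log2, so that higher and lower are relative to the bulk of the miRNAs. The 3 with the lowest adjusted p kept their call in every alternative run. miR-674-5p was at 162, 129, 139 and 156 CPM at 2 months. It was at 93.5 to 121 CPM at 1 month and at 73.6 to 89.7 CPM at 3 months, and the difference was log2 0.66 ± 0.11 (SE, adjusted p = 3.74e-04). 

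miR-124-5p was at 258, 264, 348 and 377 CPM at 2 months, against 158 to 255 CPM at 1 month and 139 to 169 CPM at 3 months (log2 0.78 ± 0.13, SE). miR-339-5p was at 169, 140, 151 and 218 CPM, above every other sham library, the highest of which was at 134 CPM (log2 0.70 ± 0.12, SE). On the lower side, miR-7a-5p was at 25562, 35249, 47565 and 29304 CPM at 2 months, against 48668 to 64844 CPM at 1 month and 39976 to 60476 CPM at 3 months, with 1 library at 2 months inside the range at 3 months (log2 -0.64 ± 0.15, SE, adjusted p = 0.0046).

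**Figure D5:**
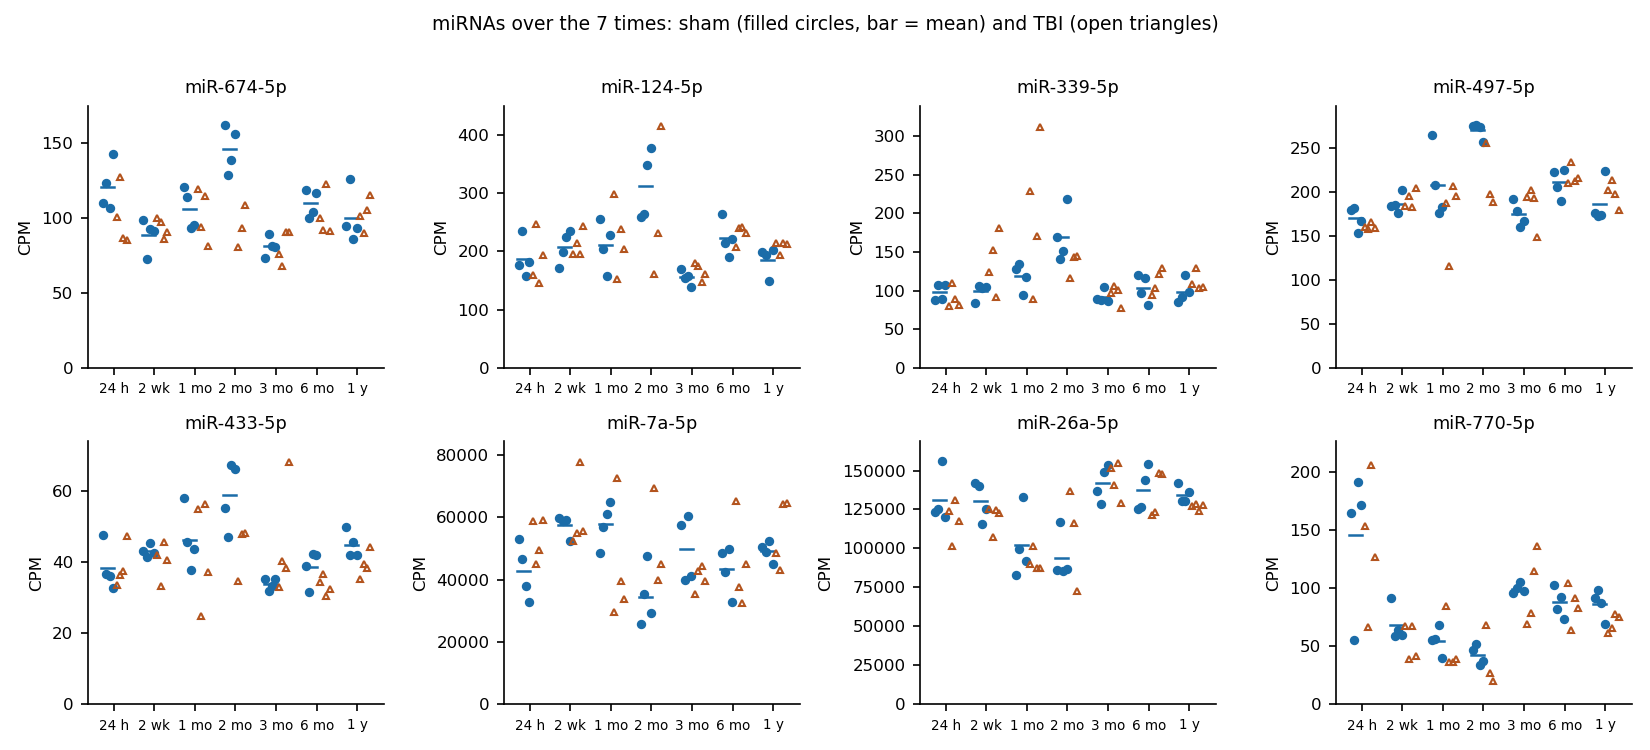
Abundance (CPM, axes from 0) of 8 miRNAs by time; filled circles are sham rats with a bar at their mean, and open triangles TBI rats, without rat X747. miR-674-5p, miR-124-5p and miR-339-5p are highest in sham rats at 2 months, miR-7a-5p is lowest there, and miR-26a-5p and miR-770-5p are low at 1 and 2 months.

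Marker and family lists moved at 2 months as follows, each count being of the members tested and set against the 19.6% higher and 16.7% lower of all miRNAs. All 4 choroid plexus miRNAs were lower, with a median of -1.46 log2, but 1 was without X57, X60 and X79, with a median of -0.77. Of the vessel wall miRNAs 2 of 3 were higher, miR-143-5p and miR-145-5p, both known from smooth muscle. miR-145-5p was at 598, 665, 877 and 997 CPM at 2 months and at 266 to 320 CPM at 3 months, but at 219 to 683 CPM at 24 h. The miR-17-92 group and its paralogues, known from dividing cells, had 4 of 9 higher and 0 lower, with a median of 0.31. The Dlk1-Dio3 region had 10 of 40 higher and 4 lower, with a median of 0.01. The let-7 family had 0 of 9 higher and 3 lower (let-7f-5p, let-7i-5p and miR-98-5p), but 3 higher and 0 lower when scaled by total count alone, so that its direction depends on the scaling. The neuron-enriched list had 1 higher (miR-124-5p) and 2 lower (miR-9a-5p and miR-212-5p) of 10, and by total count 2 higher and 0 lower. No member of the oligodendrocyte, red blood cell, muscle, liver and endocrine or miR-181 lists was called. Of the smaller families, miR-29 had 1 of 3 higher, miR-30 had 2 of 5 higher, miR-34 had 1 higher and 1 lower of 3, and the group of miR-99, miR-100 and miR-125 had 1 of 5 lower. The ciliated cell list had 1 of 3 lower, the sensory cluster 1 of 3 lower, and the microglia and leukocyte list 1 of 5 lower. Except where stated, these list counts are of all sham libraries, and 31 of the 87 calls were left without X57, X60 and X79.

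At 3 months 29 miRNAs were higher than the mean of 2 and 6 months (12.1%) and 33 lower (13.8%), with 16 and 56 when scaled by total count alone. Against 6 months alone, 0 of 240 were called. miR-204-5p was higher by log2 2.74 ± 0.52 (SE, adjusted p = 0.00124), and by 0.89 without X57, X60 and X79, where it did not pass (adjusted p = 0.208). The choroid plexus list had 3 of 4 higher, and 0 of 4 without these libraries. miR-6215 was higher than that mean by 2.19 ± 0.28 (SE) and stayed past the threshold in every alternative run of this contrast. Like all others, it did not pass against 6 months alone. miR-674-5p was lower by 0.65 ± 0.12 (SE), and by 0.63 ± 0.18 without X57, X60 and X79, where it did not pass (adjusted p = 0.0845). The sensory cluster had 3 of 3 higher and the ciliated cell list 2 of 3, with medians of 3.02 and 1.35 log2. The vessel wall list had 2 of 3 lower, and the Dlk1-Dio3 region 3 of 40 higher and 7 lower. Without X57, X60 and X79, no member of the ciliated cell, vessel wall or Dlk1-Dio3 lists was called at 3 months. The sensory cluster kept its calls, which rest on 1 of the remaining libraries.

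The 3 miRNAs called at 2 weeks were those of the sensory cluster, miR-96-5p (log2 2.82 ± 0.59, SE, adjusted p = 0.0150), miR-183-5p (2.41 ± 0.60, adjusted p = 0.0452) and miR-182 (2.23 ± 0.57, adjusted p = 0.0452). They were high in single rats and not in a group. miR-183-5p was at 103, 43.2, 293 and 15 CPM at 2 weeks, with 2 of the 4 libraries inside the range of 1 month (8.18 to 66.9 CPM). It was also at 225 CPM in 1 rat at 3 months, 88.4 CPM in rat X79 at 1 year and 64.1 CPM in 1 rat at 24 h, and in 1 TBI rat at 1 year it reached 586 CPM. Without 2 weeks replicate 3 the count of calls was 0, and miR-96-5p then had log2 1.49 (adjusted p = 0.572). The highest values of the 3 miRNAs at 3 months were in another rat than those of miR-204-5p.

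The libraries of 1 and 2 months, which carry the numbers 21, 22, 25 and 26, were also set against the other 5 times. This contrast called 59 of 240 miRNAs (24.6%), 32 higher (13.3%) and 27 lower (11.2%). By total count alone it called 108, 96 higher and 12 lower, with a shift of the median of all miRNAs from 0.00 to 0.17 log2, and without X57, X60 and X79 it called 40, all of them among the 59. miR-770-5p, encoded at the Dlk1-Dio3 region, was lower by log2 0.98 ± 0.16 (SE, adjusted p = 1.65e-04). It was at 54.8, 55.9, 67.7 and 39.4 CPM at 1 month and at 46.0, 51.5, 33.1 and 37.1 CPM at 2 months. It was at 95.2 to 105 CPM at 3 months, 72.9 to 102 CPM at 6 months and 68.5 to 97.9 CPM at 1 year, but also at 58.3 to 91.5 CPM at 2 weeks and at 164, 54.9, 191 and 171 CPM at 24 h, so that the early times overlapped. miR-26a-5p was lower by 0.47 ± 0.07 (SE), with 6 of the 8 libraries at 83062 to 99538 CPM and the other 2 at 116873 and 133328 CPM, against 115484 to 156474 CPM at the other times. miR-146b-5p, which targets Toll-like receptor signalling, was lower by 0.42 ± 0.07 (SE), at 3194 to 4567 CPM against 3964 to 6043 CPM.

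On the higher side of the same contrast stood miR-339-5p (log2 0.52 ± 0.09, SE), miR-497-5p (0.36 ± 0.07) and miR-433-5p (0.41 ± 0.08, encoded at the Dlk1-Dio3 region). miR-497-5p was at 276, 277, 274 and 258 CPM at 2 months and at 265, 209, 176 and 184 CPM at 1 month, against 153 to 225 CPM elsewhere. Its neighbour miR-195-5p was higher at 2 months than the mean of the times beside it (0.31 ± 0.10, SE, adjusted p = 0.0273). Without X57, X60 and X79 that difference was 0.26 ± 0.12 (SE) and did not pass (adjusted p = 0.0983). miR-195-5p differs from miR-497-5p in its high levels at 6 months and 1 year. The 6 miRNAs named for 1 and 2 months against the other times, without miR-195-5p, kept their call in every alternative run.

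The spread between rats of one time was wide enough to matter for the weaker results. The median SD of log2 CPM over the 240 miRNAs was 0.18 at 3 months and 0.28 at 24 h, the lowest and highest of the 7 times, and the number of miRNAs with an SD over 1 was 12 at 3 months and 8 at 1 year against 2 to 4 at the others. In principal component analysis of log2 CPM the leading axis carried 30% of the variance, with the largest weights on miR-182, miR-183-5p and miR-204-5p. The next axis carried 11.6%, with the largest weight on miR-6215.

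A further 4 miRNAs known from immune and glial cells, of interest after injury, were followed in the sham rats. miR-155-5p was at 7.18 to 10.8 CPM at 24 h and 5.48 to 12.6 CPM at 1 year (slope -0.05 ± 0.04 log2 per step, SE, adjusted p = 0.540), and the 4 highest sham values were 14.1 CPM in rat X57, 12.8 CPM in a rat at 1 month, 12.6 CPM in rat X79 and 11.4 CPM in rat X60. Without X57, X60 and X79 its slope was -0.13 ± 0.03 (SE, adjusted p = 0.0229). miR-21-5p was at 4674 to 7562 CPM at 24 h and 6610 to 8304 CPM at 1 year (slope 0.06 ± 0.02, SE, adjusted p = 0.151). miR-142-5p stayed between 91.1 and 154 CPM in all 28 libraries (slope -0.00 ± 0.02, SE, adjusted p = 0.929), and miR-223-5p had 0 to 10 counts per library and was not tested.

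The TBI libraries gave a second look at the same times in other rats, with other numbers in the library names except at 1 year. All 6 sham slopes had the same sign there and 4 passed in both groups, among 20 of 240 slopes called in TBI (8.33%). miR-296-5p fell by 0.42 ± 0.04 log2 per step and miR-298-5p by 0.19 ± 0.02 (SE). A test of the difference between the slopes over all 56 libraries called 3 of 244 miRNAs (1.23%), which were miR-223-5p, miR-155-5p and also miR-21-5p, each with a lower slope in TBI. None of the 6 sham trend miRNAs was among them.

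Of the 87 sham calls at 2 months, 70 had the same sign in TBI but 4 were called there, among 8 in all (3.33%), and 1 without rat X747, whose library held 69628 counts. How many of all miRNAs had the same sign was not counted, so the 70 have no background beside them. In TBI 1 month had 13 calls against its neighbours (5.42%), and in sham 0. The difference between sham and TBI in these contrasts called 0 of 244 miRNAs by edgeR's quasi-likelihood test at 1 month and 0 at 2 months, with 52 and 34 at an unadjusted p under 0.05; no other tool was run for it. For 1 and 2 months against the other times, TBI had 60 calls (25%), of which 20 were shared in the same direction with the 59 of sham, which is 33.3% of the TBI calls and 33.9% of the sham calls (15 shared without rat X747). miR-339-5p, miR-26a-5p, miR-770-5p, miR-146b-5p and miR-6215 passed in both. The difference between the groups in this contrast called 18 of 244 (7.38%), among them miR-99a-5p (TBI minus sham, log2 0.64 ± 0.14, SE, adjusted p = 0.0025). The TBI contrasts at single times and these tests of the difference were added after the data were seen.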

How the data were processed

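Hippocampal small RNA of 56 rats (4 sham and 4 TBI rats at each of 7 times) was measured. Per the study's methods, the authors sequenced NEBNext small RNA libraries, made reads with bcl2fastq (version 2.20.0.422 in the submitters' processing notes) and counted known miRNAs with miRDeep2 against miRBase. They deposited raw counts per miRNA, with no normalization. The genome build and the rule for reads that match several miRNAs are not given in the sources used here. All columns were mapped to samples by name (0 unmapped).

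From the counts, miRNAs with low counts were removed with filterByExpr (240 of 367 tested in sham), libraries were scaled by TMM, and edgeR 4.0.16 in R 4.3.3 was run with its quasi-likelihood test and Benjamini-Hochberg adjustment at 0.05, on 7 time means or 1 slope over the order of the times. CPM are counts over the TMM-scaled library size, times 1e6. SE was the log2 change divided by the square root of F. Python 3.11.15 and pandas 2.3.3 made the summaries. The sham libraries held 3665721 to 11885871 counts, and no pair of libraries of 1 time agreed within sampling noise. Nothing in the labels ties same-numbered replicates. In the fits of 7 time means, p-values measure the spread between rats of a time. For the slopes, the spread also takes in how far the means of the times lie from the line.

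miRNAs were named by these rules: the 10 most abundant, up to 8 rising and 8 falling in the trend, 3 for each time against its neighbours, 3 higher and 3 lower for 1 and 2 months and for 1 year against 24 h, the 5 with the lowest adjusted p for any difference, and 4 miRNAs of interest after injury. The members, rules and lists (cell markers and families) were chosen with earlier results of these data known. Alternatives were other scalings, filters and tests, DESeq2 1.42.0, a fit of all 56 libraries, other time scales, and leaving out each library or time. Leaving out rats X57, X60 and X79 (over 10000 CPM of choroid plexus miRNAs), the contrast of 3 and 6 months, the pairs of times and the matching TBI contrasts were chosen after seeing the data.

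The procedure was tested on simulated data. With no change, 0 of 239 miRNAs were called in each comparison. For the trend, 23 of 30 changes of log2 1 and 30 of 30 of log2 2 were recovered, with 2 false calls. These changes ran from the first to the last time and are not per step. Most of the sham slopes found were smaller than the smallest of them. For 2 months against its neighbours 27 of 30 and 29 of 30 were recovered, with 0 false calls. The 237 miRNAs tested in each include the changed ones. Each setting was drawn once, with no batch and no outlying library, so the counts say nothing of either.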

Additional observations from a re-analysis of the deposited data

Results flagged for a closer look

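Among the named miRNAs, single rats lay far from the other 3 rats of their time in 21 of 224 groups of 4 (gap to the nearest over the whole range above the 95% critical value of Dixon's test, which chance gives in about 1 in 20 groups). Rat X79 at 1 year accounted for 4 of them: miR-204-5p at 18953 CPM (others 1963 to 2333), miR-182 at 158 CPM (others 24.4 to 40.4), miR-155-5p at 12.6 CPM (others 5.48 to 6.11) and miR-124-5p at 148 CPM (others 194 to 202). In rat X461 at 24 h, miR-26a-5p was high at 156474 CPM and miR-183-5p at 64.1 CPM (others 7.60 to 15.5). In rat X795 at 1 month, miR-155-5p was high at 12.8 CPM and miR-218a-5p low at 37161 CPM. In the rat called tube.17 at 2 weeks, miR-339-5p was low at 84.5 CPM and miR-770-5p high at 91.5 CPM. Rat X776 at 2 months had miR-6215 high at 1.37 CPM and miR-497-5p low at 258 CPM.

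At 1 year, rat X80 had miR-195-5p high at 611 CPM and miR-497-5p high at 224 CPM, which are neighbours on chromosome 10, and rat X77 had miR-6215 high at 2.21 CPM and miR-24-2-5p low at 493 CPM. The remaining 5 were miR-26a-5p at 116873 CPM in rat X777 at 2 months, miR-7a-5p at 52307 CPM in tube.20 and miR-24-2-5p at 586 CPM in tube.19 at 2 weeks, miR-412-5p at 70.3 CPM in rat X599 at 24 h, and miR-339-5p at 104 CPM in rat X57 at 3 months.

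The effect of time differed between TBI and sham rats for 4 of the named miRNAs by edgeR's quasi-likelihood test of the difference in all 56 libraries. The slope of TBI minus that of sham was -0.48 ± 0.07 log2 per step for miR-155-5p (SE, adjusted p = 2.35e-07), -0.20 ± 0.05 for miR-21-5p (adjusted p = 0.00946) and -0.69 ± 0.17 for miR-223-5p (adjusted p = 0.00946). For 1 year minus 24 h, the difference on the log2 scale was -4.94 for miR-223-5p, -3.20 for miR-155-5p and -1.55 in the case of miR-21-5p. For 1 and 2 months against the other times it was 0.64 for miR-99a-5p.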

How the results depend on the processing

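Of 1164 values of single miRNAs under the alternatives, 1056 kept their direction and call, 108 lost the call and 0 reversed. The alternatives reuse the libraries in which these miRNAs were chosen, so a kept direction says little. Scaled by total count alone, 98 miRNAs differed between any times and 108 at 1 and 2 months. Without X57, X60 and X79 the counts were 36 (any difference), 11 (trend), 0 (1 year minus 24 h), 31 (2 months) and 4 (3 months). With time in months the trend called 3, and without the 2 weeks libraries 10. At 2 weeks, 8 were called with no filter, 0 with at least 10 counts in every library, 1 by the likelihood ratio test, 1 by the older quasi-likelihood fit, 1 by DESeq2, and 0 in the fit of 56 libraries. At 6 months the likelihood ratio test called 7, DESeq2 8 and the fit of 56 libraries 3. When each neighbour alone had to pass, 0 were called at 2 weeks, 5 at 2 months and 0 at 3 months. Leaving out 1 library gave 41 to 85 calls for any difference, 4 to 9 for the trend, 0 to 17 for 1 year minus 24 h, 0 to 4 at 2 weeks, 0 to 1 at 1 month, 37 to 94 at 2 months, 17 to 70 at 3 months, 0 to 4 at 6 months and 33 to 65 for 1 and 2 months. The 2 month count was 39 and 37 without 2 months replicates 3 and 4, 50 without 1 month replicate 3 and 57 without 3 months replicate 4. The 3 month count was 17 without 3 months replicate 3 or 4, and 41 without 3 months replicate 1 or 6 months replicate 1. The count for 1 and 2 months was 33 without 1 month replicate 1. The cause was not tested. No paired analysis was possible because the replicate numbers are in accession order only, and the numbers in the library names, which repeat within a time, are not shared between times. Depth limits miR-296-5p, miR-6215 and miR-223-5p, which had few counts.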
